A study of Rattus norvegicus with 42 samples.

Results

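The messenger RNAs of 5 genes of the cell division cycle were followed in GH4C1 cells with and without the long non-coding RNA Neat1. These rat pituitary cells, an established line, belong to the somatolactotroph lineage, whose hormones are growth hormone and prolactin. The genes were chosen by name as widely used markers of proliferation and not ranked by their values, although earlier results of these data were known. Of 6 identifiers listed, 5 had a row in both deposited tables of 13776 genes: Mki67 (ENSRNOG00000028137), Top2a (ENSRNOG00000053047), Ccnb1 (ENSRNOG00000058539), Cdk1 (ENSRNOG00000000632) and Pcna (ENSRNOG00000021264). The identifier listed for the cyclin D1 gene Ccnd1 (ENSRNOG00000020918) had no row and was not analysed here. The names come with that list, and 0 identifiers of the tables could be checked against a symbol in RefSeq's gene table.

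The study compared wild-type cells (WT, untreated) with Neat1 -/- cells made with CRISPR-Cas9 (KO) to ask how the loss of Neat1 affects rhythmic gene expression. Both were grown in serum-containing medium and given fresh medium to bring the cells into step. RNA was then taken at 7 times, T10, T14, T18, T22, T26, T30 and T34, named by the hours since that change. Each genotype had 3 replicates at each time, which makes 42 libraries in 14 groups. The number of KO clones and whether replicates were separate cultures are not given in the sources used here, so the p-values below measure the spread between these libraries, which may be technical. Neat1 itself and the defining markers of the pituitary lineage were not analysed here, because the identifiers could not be paired with names, and the labels are used as given.

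A dividing cell passes through a growth phase (G1), DNA synthesis (S), a second gap (G2) and mitosis (M), and many of the proteins it needs are made only in the phase that uses them. Pcna is the sliding clamp that holds DNA polymerases on the template in S phase. Top2a untangles DNA strands and is made mainly from S phase to mitosis. Ccnb1 (cyclin B1) activates the kinase Cdk1, and the pair drives entry into mitosis. Mki67 encodes Ki-67, a protein that coats mitotic chromosomes and is used as a general label of cycling cells. Genes of the G2 and M phases are commonly controlled through CCAAT boxes, bound by NF-Y, and through the cell cycle genes homology region (CHR), bound by the DREAM and MuvB complexes, while S-phase genes are commonly controlled through E2F sites.

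The 250 bases upstream of the RefSeq start are shown for each of the 5 genes, whatever its levels in WT and KO. They are from assembly GRCr8, written 5′ to 3′ on the strand of the gene. The build behind the counts is not given in the sources used here. Capitals mark matches on either strand to CCAAT, to the CHR letters TTTGAA or TTCGAA, and to the E2F core, taken as the letters TTGGCGC, or the letters TTCCCGC, or the letters TTCGCGC, or the letters TTGCCGC.
Mki67 (chr1:199952594-199952843, minus strand): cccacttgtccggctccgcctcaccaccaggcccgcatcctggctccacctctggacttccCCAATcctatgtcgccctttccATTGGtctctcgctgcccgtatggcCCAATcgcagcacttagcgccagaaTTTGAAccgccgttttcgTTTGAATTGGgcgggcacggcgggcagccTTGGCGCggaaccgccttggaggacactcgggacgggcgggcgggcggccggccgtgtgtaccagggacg
Top2a (chr10:84473094-84473343, minus strand): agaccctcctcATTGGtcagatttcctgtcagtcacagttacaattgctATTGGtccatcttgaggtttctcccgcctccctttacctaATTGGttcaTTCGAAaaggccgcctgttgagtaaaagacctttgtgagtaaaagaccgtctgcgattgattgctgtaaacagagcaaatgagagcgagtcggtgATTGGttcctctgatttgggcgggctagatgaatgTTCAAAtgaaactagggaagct
Ccnb1 (chr2:33655226-33655475, minus strand): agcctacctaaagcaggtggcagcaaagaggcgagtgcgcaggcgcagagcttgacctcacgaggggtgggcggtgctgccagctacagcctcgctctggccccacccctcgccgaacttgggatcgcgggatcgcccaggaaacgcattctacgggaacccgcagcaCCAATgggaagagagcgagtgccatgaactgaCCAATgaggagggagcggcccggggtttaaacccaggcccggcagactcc
Cdk1 (chr20:19265043-19265292, plus strand): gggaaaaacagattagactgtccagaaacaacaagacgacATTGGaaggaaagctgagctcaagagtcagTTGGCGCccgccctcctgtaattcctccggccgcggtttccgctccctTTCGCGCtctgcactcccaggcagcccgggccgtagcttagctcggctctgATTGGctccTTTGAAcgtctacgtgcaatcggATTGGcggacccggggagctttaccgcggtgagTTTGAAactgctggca
Pcna (chr3:139955821-139956070, minus strand): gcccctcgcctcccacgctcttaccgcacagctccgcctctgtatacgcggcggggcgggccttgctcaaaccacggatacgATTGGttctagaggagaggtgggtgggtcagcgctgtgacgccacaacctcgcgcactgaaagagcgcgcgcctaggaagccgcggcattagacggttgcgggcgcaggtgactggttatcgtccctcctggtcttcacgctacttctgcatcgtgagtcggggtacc
A CCAAT match was present in 5 of 5 windows, against 34% of the 33469 windows of the same length in the table. CHR letters were present in 3 of 5 (Mki67, Top2a and Cdk1), against 17.4% of all windows. An E2F core was present in 2 of 5 (Mki67 and Cdk1), against 7.59%. Top2a and Mki67 held 4 CCAAT matches each, Cdk1 3, Ccnb1 2 and Pcna 1. In Mki67 the CHR letters that start 99 bases before the start site share a base with a CCAAT match on the other strand. These are matches of letters in a window and were not tested as binding sites. No link between them and the levels in WT or KO was tested.

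Library totals were 34.5 to 68.8 M counts in WT and 45.9 to 60.5 M in KO (M, mega), and the lowest count of any of the 5 genes in any library was 3141. Levels are in CPM, the count divided by the library total in M after TMM scaling, and they are compared between libraries, not between genes, because they are not divided by gene length. WT T34 replicate 1 stood apart. The correlation of log2 CPM over all genes was 0.919 and 0.935 in its pairs with the other WT T34 replicates, against 0.987 to 0.995 in the remaining 40 replicate pairs. This library had 105 CPM of Ccnb1, against 228 and 193 in replicates 2 and 3. It had 229 CPM of Pcna, against 509 and 435. Cdk1 was at 130 CPM, against 229 and 198, and Top2a at 860 CPM, against 1392 and 1386. Only Mki67 was not low there, at 1059 CPM against 890 and 1030. The library is one of the 3 of its group and also widens the spread that all tests share, so results that it moves are given with and without it. In bulk RNA, fewer cells in a phase and less of a transcript per cell cannot be told apart.

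**Figure D1:**
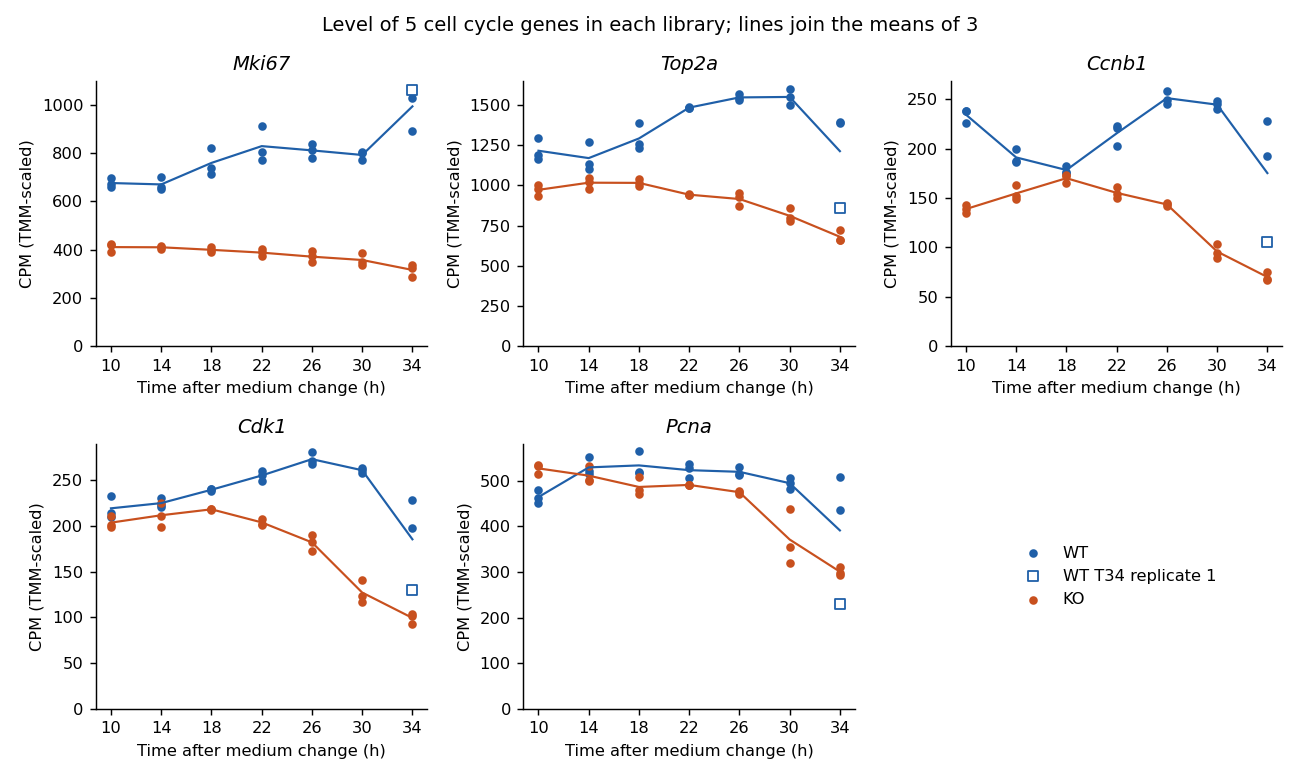
Level of each gene in each of the 42 libraries, in CPM with TMM scaling (vertical axes from 0), against hours after the medium change. Points are libraries, lines join the means of the 3 replicates, and the open square is WT T34 replicate 1. Mki67 in KO lies below every WT library, and all 5 genes are at their lowest KO mean at T34.

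Averaged over the 7 times, all 5 genes were lower in KO than in WT. Mki67 was lowest relative to WT, at 48.1% of the WT level, and Pcna was closest, at 90.4%. The log2 fold change of KO against WT was -1.06 (SE 0.03) for Mki67, -0.73 (SE 0.05) for Ccnb1, -0.58 (SE 0.04) for Top2a, -0.45 (SE 0.04) for Cdk1 and -0.15 (SE 0.05) for Pcna. The adjusted p by edgeR's quasi-likelihood test was 1.38e-26 for Mki67, 2.16e-15 for Ccnb1, 6.54e-16 for Top2a, 1.02e-12 for Cdk1 and 0.00959 for Pcna. Of the counts in a library, the 10 most abundant genes held 4.80 to 7.16% in WT and 23.2 to 27.1% in KO; the part of this in the values of the 5 genes was not tested. In this comparison 88.1% of all 13776 genes were called at an adjusted p under 0.05, and 44.7% were called and lower in KO, so that 5 of 5 genes called is near the share of all genes. Without WT T34 replicate 1 all 5 were called too, against 90.7%. The median log2 fold change was -0.58 over the 5 genes and -0.01 over all genes. With library totals in place of TMM scaling, the median of all genes moved to -0.31, and the 5 genes stayed lower in KO, at -0.44 for Pcna and -1.35 for Mki67. The Pcna call was lost without KO replicate 2, with a log2 fold change of -0.13 and an adjusted p of 0.0604 by edgeR.

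Mki67, the label of cycling cells, had the widest gap between the genotypes averaged over the 7 times, although Ccnb1 had a wider one at T10 and T30. In WT it ranged from 652 to 1059 CPM with a median of 781, and in KO from 286 to 423 CPM with a median of 388 (21 libraries each). The ranges did not overlap over the whole series, which held for KO below WT in 8.83% of all genes. At T10 the 3 WT libraries had 657, 671 and 697 CPM and the 3 KO libraries 390, 418 and 423 CPM. At T22 the WT libraries had 910, 804 and 771 CPM and the KO libraries 373, 401 and 388 CPM. At T34 they had 1059, 890 and 1030 CPM in WT and 337, 286 and 324 CPM in KO. The level was thus highest at T34 in WT and lowest at T34 in KO. Within WT it was 47.0% higher at T34 than at T10 (log2 0.56, SE 0.07, edgeR adjusted p 3.47e-07), and within KO 76.9% of the T10 level remained (log2 -0.38, SE 0.07, edgeR adjusted p 7.65e-05). In both genotypes neighbours in the order of the 7 time means overlapped in range, except T18 and T10 in WT, where T18 was higher.

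Top2a, the topoisomerase of S phase to mitosis, had every T30 library above every T10 library in WT and below every T10 library in KO. The T30 against T10 change was not tested, and the share of all genes with such ranges was not counted. The WT libraries had 1163, 1190 and 1293 CPM at T10 and 1500, 1602 and 1548 CPM at T30. The KO libraries had 936, 1004 and 976 CPM at T10 and 777, 796 and 857 CPM at T30. The mean over WT was highest at T30 (1550 ± 50.7 CPM) and T26 (1547 ± 20.1 CPM; SD, n = 3 each), whose ranges overlapped. In KO the highest means were those of T14 (1016 ± 34.6 CPM) and T18 (1015 ± 21.1 CPM; SD, n = 3 each), which also overlapped. In KO it fell to 661, 657 and 721 CPM at T34, below every other KO library, and the change from T10 was -0.52 on the log2 scale (SE 0.10, edgeR adjusted p 8.81e-05). In WT the same change was -0.0031 (SE 0.10, edgeR adjusted p 0.982). Without WT T34 replicate 1 it was 0.19 (SE 0.06) and passed the test, at an edgeR adjusted p of 0.00688.

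Ccnb1, the mitotic cyclin, followed courses in the genotypes that ran against each other between T10 and T26. In WT it had 239, 226 and 239 CPM at T10, 176, 177 and 183 CPM at T18 and 249, 259 and 246 CPM at T26. In KO it had 135, 139 and 143 CPM at T10, 173, 165 and 172 CPM at T18 and 144, 145 and 142 CPM at T26. Every WT library at T18 was thus below every WT library at T10 and T26. Every KO library at T18 was above every KO library at T10 and T26. The share of all genes with such ranges was not counted. With TMM scaling the ratio of KO to WT was 0.592 at T10, 0.954 at T18 and 0.571 at T26. The T18 against T10 change, a contrast chosen after the courses were seen, was -0.39 on the log2 scale in WT (SE 0.13, edgeR adjusted p 0.0527) and 0.29 in KO (SE 0.13, edgeR adjusted p 0.546). The difference between these changes, KO minus WT, was 0.69 (SE 0.18) with an edgeR adjusted p of 0.0223, and 3.71% of all genes were called for it. Of all genes, 7.44% were called for the WT change and 0.537% for the KO change, and none of the 5 genes was in either share; 1.74% were called for the difference with KO the higher. Without WT T34 replicate 1, which is in none of these groups but enters the shared spread, its adjusted p was 1.04e-07, where 11.5% of all genes were called, and the WT and KO changes passed too, at 1.61e-06 and 0.00128. The call was lost when replicate 3 of WT, or replicate 1, 2 or 3 of KO, was left out at every time, with an adjusted p of 0.126 to 0.167 by edgeR and differences of 0.65 to 0.71.

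The end of the series was the same in direction for Ccnb1 in both genotypes and differed in size. The KO libraries had 104, 89.3 and 94.4 CPM at T30 and 68.0, 66.9 and 75.0 CPM at T34. The WT libraries had 245, 248 and 241 CPM at T30. From T10 to T34 KO fell by 0.99 on the log2 scale (SE 0.13, edgeR adjusted p 3.01e-07), to 50.4% of the T10 level. WT fell by 0.42 (SE 0.13, edgeR adjusted p 0.00991), and without WT T34 replicate 1 the value was -0.16 (SE 0.06, edgeR adjusted p 0.0443). With replicate 1 left out of WT at every time it was -0.15 and did not pass (edgeR adjusted p 0.109). In WT the order of the time means was T26, T30, T10, T22, T14, T18 and T34, where only the ranges of T26 and T30 and those of T18 and T34 overlapped between neighbours. The range at T34, 105 to 228 CPM, also overlapped those of T10, T14 and T22. Without WT T34 replicate 1 the T34 mean was 210 CPM, above those of T14 (191 CPM) and T18 (178 CPM). In KO the order of the time means was T18, T22, T14, T26, T10, T30 and T34, where T22 overlapped T14 and T26 overlapped T10.

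Cdk1, the kinase that Ccnb1 activates, was closer in the genotypes early than late, and how close depended on the scaling. At T10 the WT libraries had 215, 210 and 233 CPM and the KO libraries 201, 199 and 211 CPM, with overlapping ranges. With TMM the log2 fold change of KO against WT was -0.11 at T10, -0.09 at T14 and -0.14 at T18, none of which passed. With library totals it was -0.42 (edgeR adjusted p 8.1e-05), -0.40 (0.000171) and -0.43 (5.84e-05). At T26 the libraries had 268, 271 and 280 CPM in WT and 183, 190 and 173 CPM in KO. At T30 they had 264, 258 and 261 CPM in WT and 141, 117 and 124 CPM in KO. The KO level was 48.8% of its T10 level at T34, where the libraries had 102, 92.3 and 104 CPM, and the change was -1.03 (SE 0.10, edgeR adjusted p 2.33e-09). In WT the T34 against T10 change was -0.24 (SE 0.10, edgeR adjusted p 0.0586), and it was -0.04 (SE 0.06, edgeR adjusted p 0.67) without WT T34 replicate 1. The highest mean was that of T26 in WT (273 ± 6.66 CPM), apart in range from T30, and that of T18 in KO (218 ± 1.05 CPM; SD, n = 3 each), which overlapped T14. In KO the lowest means were those of T26, T30 and T34, in falling order and with no overlap between neighbours.

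Pcna, the replication clamp, differed least between the genotypes averaged over the 7 times, although Cdk1 differed less at T10 and Ccnb1 at T18. At T10 it had 463, 451 and 478 CPM in WT and 533, 515 and 533 CPM in KO, so that every KO library lay above every WT library. The share of all genes with KO wholly above WT at T10 is not given here. At T10 4836 of 13776 genes were called with KO the higher. For Pcna the difference at T10 did not pass the test (log2 0.18, SE 0.14, edgeR adjusted p 0.23). It passed without WT T34 replicate 1 (0.18, SE 0.06, edgeR adjusted p 0.0099) and had the other sign with library totals (-0.13, edgeR adjusted p 0.333). At T26 the libraries had 513, 529 and 516 CPM in WT and 478, 472 and 475 CPM in KO. At T30 they had 495, 506 and 481 CPM in WT and 437, 320 and 355 CPM in KO, and at T34 297, 293 and 311 CPM in KO. At each time from T18 to T30, every KO library was below every WT library. Within KO the T34 level was 57.0% of the T10 level (log2 -0.81, SE 0.14, edgeR adjusted p 1.99e-05), whereas in WT the change was -0.25 (SE 0.14, edgeR adjusted p 0.152) and 0.03 (SE 0.07, edgeR adjusted p 0.82) without WT T34 replicate 1.

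**Figure D2:**
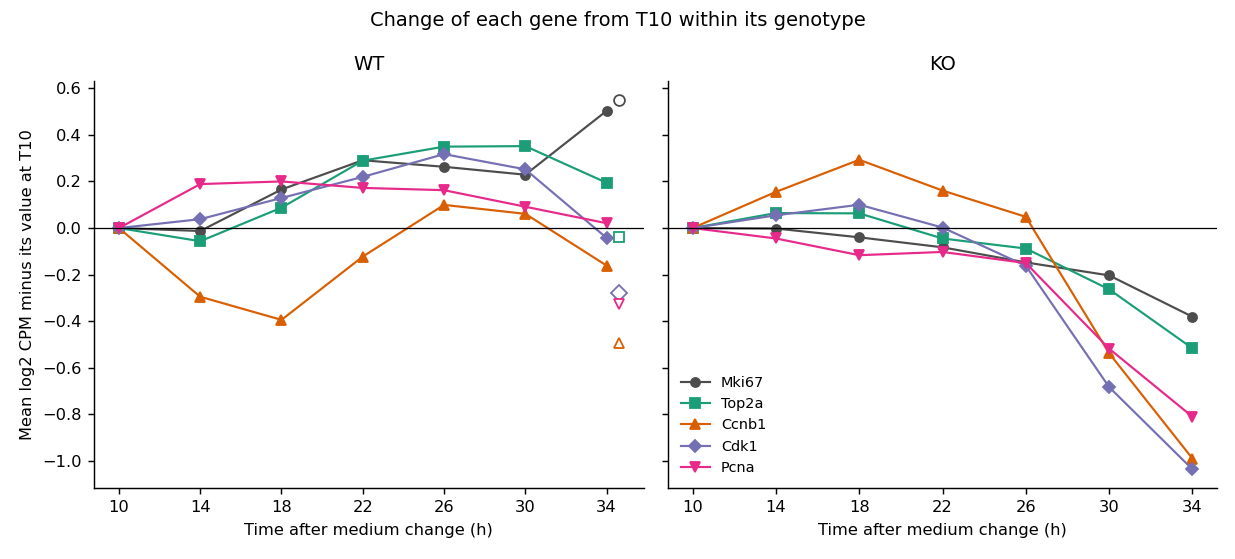
Mean log2 CPM of each gene minus its own mean at T10, in WT (left) and KO (right), against hours after the medium change. WT T34 is the mean of replicates 2 and 3 and the open symbols include replicate 1. In KO all 5 genes end below 0, from -0.38 for Mki67 to -1.04 for Cdk1, and Ccnb1 at T18 lies at -0.39 in WT and 0.29 in KO.

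Taken time by time, the median difference of the 5 genes between KO and WT was smallest at T14 and T18 and largest at T30 and T34. At T10 3 of the 5 genes were called, all lower in KO (Mki67, Top2a and Ccnb1), where 69.6% of all genes were called and 34.5% were called and lower. The count was 2 at T14, where 70.9% of all genes were called and 34.9% were called and lower. It was 2 at T18, against 68.9% and 34.1% of all genes, and 4 at T22, against 70.5% and 34.9%. It was 4 at T26, against 70.3% and 35%, and 5 at T30, against 73% and 36%. At T34 it was 5, against 60.7% and 33.1%. KO was the lower in every call. The rise in these counts depended on the scaling. With library totals 4 of the 5 genes were called at T10 and all 5 at each later time. Of all 13776 genes, 9060 (T34) to 10258 (T14) were then called. Called and lower were 6786 (T30) to 7263 (T10), and the median of all genes lay between -0.33 and -0.26. The median log2 fold change of the 5 genes was -0.32 for T10, -0.20 for T14 and -0.14 for T18. It was -0.47 for T22, -0.76 for T26, -1.04 for T30 and -0.90 for T34, while that of all genes stayed between -0.04 and 0.01. The ranges of the 3 KO and 3 WT libraries did not overlap, with KO below WT, for 3 genes at T10 and T14, for 5 from T18 to T30 and for 4 at T34. The share of all genes with KO wholly below WT was between 38.4% (T30) and 40.6% (T26) up to T30, with 39.2% for T10 and T18, 38.8% for T14 and 40.4% for T22, and then 22.7% for T34.

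Mki67 went from a log2 fold change of -0.72 (SE 0.07) at T10 to -1.65 (SE 0.07) at T34. Cdk1 went from -0.11 (SE 0.10), which did not pass, to -1.04 (SE 0.10) at T30 and -0.90 (SE 0.10) at T34. Ccnb1 was at -0.76 (SE 0.13) at T10, -0.07 (SE 0.13) at T18, where its edgeR adjusted p was 0.644, and -1.35 (SE 0.13) at T30. With library totals Ccnb1 at T18 was -0.37 and passed (edgeR adjusted p 0.00516). Pcna passed at T30 (-0.41, SE 0.14, edgeR adjusted p 0.00752) and T34 (-0.38, SE 0.14, edgeR adjusted p 0.0169) and, with TMM scaling and all 42 libraries, at no earlier time. With library totals it also passed at T14 (-0.36), T18 (-0.43), T22 (-0.40) and T26 (-0.45), at edgeR adjusted p of 0.00165 to 0.00931. With only the 6 libraries of a time fitted it passed at T18, T22 and T26 (0.0449, 0.016 and 0.00339), and at T10 with KO the higher (0.00326). In the same setting the T34 call of Pcna was lost (-0.38, SE 0.29, edgeR adjusted p 0.389). Without WT T34 replicate 1 the T34 values were -1.60 for Mki67, -1.59 for Ccnb1, -1.10 for Cdk1, -1.03 for Top2a and -0.65 for Pcna, with edgeR adjusted p of 4.31e-10 or lower, where 75.6% of all genes were called. The Pcna call was the least stable. At T34 it was lost when replicate 2 or 3 of WT or any replicate number of KO was left out, with values of -0.40 to -0.13 and an edgeR adjusted p of 0.054 to 0.468. At T30 it was lost without KO replicate 2 (-0.32, edgeR adjusted p 0.0961) or 3 (-0.38, edgeR adjusted p 0.0539). The Ccnb1 call at T14 (-0.31, edgeR adjusted p 0.0328) was lost without WT replicate 3 or any replicate number of KO, at an edgeR adjusted p of 0.0584 to 0.132.

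**Figure D3:**
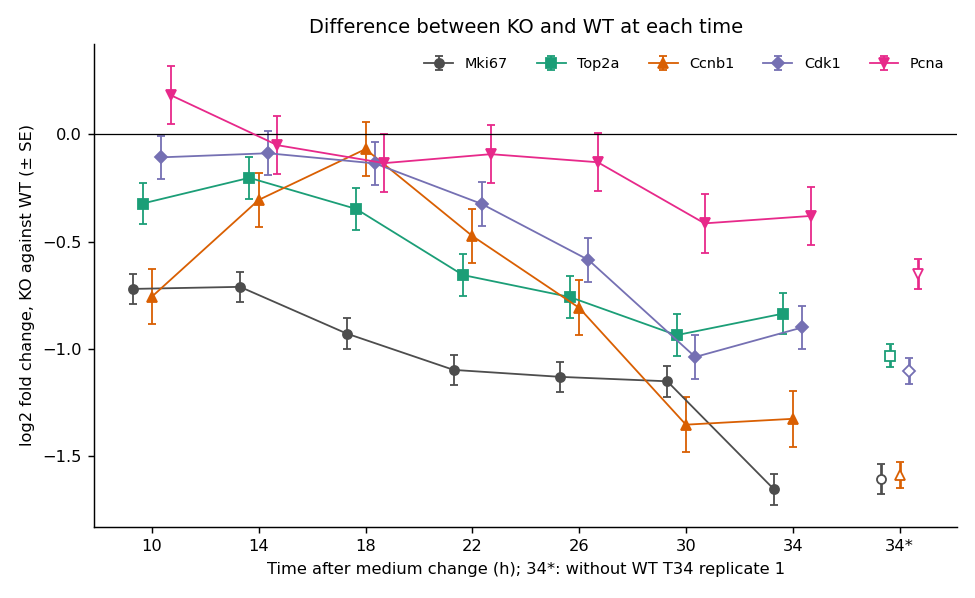
Log2 fold change of KO against WT for each gene at each time after the medium change, with its SE from the edgeR fit of all 42 libraries (filled, joined by lines). Open symbols at 34* are the T34 values without WT T34 replicate 1. Ccnb1 is nearest to 0 at T18, at -0.07, and Mki67 is lowest at T34, at -1.65.

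The size of the KO effect depended on the time for most of the 5 genes. A test of the interaction between time and genotype called 4 of the 5, with an edgeR adjusted p of 6.42e-08 for Mki67, 1.39e-06 for Cdk1, 1.69e-06 for Ccnb1 and 0.000129 for Top2a, where 39.3% of all genes were called. For Pcna it was 0.127, and it was 1.84e-07 without WT T34 replicate 1, where 54% of all genes were called. In a contrast also chosen after the courses were seen, the T34 against T10 change differed between the genotypes for all 5 genes, with KO the lower, and 36.9% of all genes were called for this difference, 21.7% with KO the lower. Its size on the log2 scale, KO minus WT, was -0.93 (SE 0.10) for Mki67, -0.79 (SE 0.14) for Cdk1, -0.57 (SE 0.18) for Ccnb1, -0.56 (SE 0.19) for Pcna and -0.51 (SE 0.14) for Top2a. Without WT T34 replicate 1 these became, in the same order, -0.88, -0.996, -0.83, -0.84 and -0.71, where 38.6% of all genes were called. The Ccnb1 and Pcna calls were lost when replicate 2 or 3 of WT or any replicate number of KO was left out, at edgeR adjusted p of 0.0542 to 0.273, and the Top2a call without replicate 2 of WT (0.0707) or of KO (0.052).

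Within each genotype the 7 times were then compared with each other. In KO time had an effect on all 5 genes, where 36.8% of all genes were called, with an edgeR adjusted p from 1.86e-10 for Cdk1 to 0.000425 for Mki67, whose call was lost without KO replicate 2 (0.106). In WT it had one on 4 of 5, where 37.5% of all genes were called, with 0.0762 for Pcna. The WT calls depended on which libraries were fitted. With only the 21 WT libraries fitted, 1 of the 5 genes was called (Mki67, edgeR adjusted p 0.000869), where 2076 of 13754 genes were called. Without WT T34 replicate 1 all 5 were called, where 44.1% of all genes were. From T10 to T34, 5 of 5 genes fell in KO, where 34% of all genes were called and 17.5% were called and lower. In WT 1 rose (Mki67) and 1 fell (Ccnb1), where 37.9% of all genes were called, 22.9% higher and 15% lower. With only the 6 libraries of T10 and T34 in WT fitted, 0 of the 5 passed (Mki67 0.55, edgeR adjusted p 0.185). That fit called 24 of 13740 genes.

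A 24 h wave (cosinor) was fitted to each genotype; its amplitude is how far its peak lies above its mean in log2 units. In WT 1 of 5 genes was called, Top2a, with an amplitude of 0.23, a fitted peak at 25.7 h and an edgeR adjusted p of 0.0331, where 1.81% of all genes were called. This call was lost without WT replicate 2 or 3, at an edgeR adjusted p of 0.515 and 0.573, where 0 of all genes were called. Without WT T34 replicate 1, 4 of 5 were called, where 14% of all genes were called. Their fitted peaks then lay at 20.0 h for Pcna, 25.0 h for Cdk1, 26.3 h for Top2a and 28.6 h for Ccnb1. In KO 3 of 5 were called, where 34.6% of all genes were called. Their amplitudes were 0.42 for Ccnb1, 0.37 for Cdk1 and 0.17 for Top2a, with fitted peaks at 19.3, 18.6 and 18.4 h. In KO 0 of the 5 remained called when any replicate number was left out. Of all genes, 954, 37 and 0 were called without KO replicate 1, 2 and 3, against 4760 with all. The series covers 24 h, so that no peak was seen to return, and T34 differed from T10 in KO for all 3 genes called.

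The 5 genes did not share a single course. Likeness was measured as Pearson's r over the 14 group medians of log2 CPM, each less its genotype's mean, so that the difference between KO and WT does not enter. This is a description over 14 medians from the same libraries, ranked over 10816 genes that averaged 5 CPM or more. Cdk1 and Pcna were most alike, at 0.95, and Cdk1 ranked 63 of 10816 for Pcna. Cdk1 and Ccnb1 were at 0.92, Top2a was at 0.86 with Cdk1 and 0.84 with Ccnb1, and Pcna and Ccnb1 were at 0.82. Many other genes had such values. Of 10816 genes, Ccnb1 ranked 267 for Cdk1, Top2a 549 for Ccnb1 and 693 for Cdk1, and Ccnb1 846 for Pcna. Top2a and Pcna were at 0.73, where Top2a ranked 1549 for Pcna. Mki67 was also at 0.73 with Top2a, and it stood apart from Ccnb1, Cdk1 and Pcna, at 0.34 to 0.43. The highest likeness of any gene to one of the 5 was that of ENSRNOG00000024428 to Ccnb1, at 0.99, followed by ENSRNOG00000008689 to Cdk1, at 0.98. Neither could be paired with a name here.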

How the data were processed

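RNA of 42 GH4C1 libraries was sequenced. The authors deposited a table per genotype with whole-number counts per gene, made with featureCounts per the submitters' processing notes; libraries are described as strand-specific per the labels' protocols. Aligner, build, annotation, strand setting and gene filter are not given in the sources used here. The tables were joined on identifier (13776 genes). Tests used edgeR 4.0.16 in R 4.3.3: TMM scaling, filterByExpr (0 genes removed from the 14-group fit), a mean per group over all 42 libraries, quasi-likelihood F tests and Benjamini-Hochberg adjustment over all genes, called at an adjusted p under 0.05. Cosinors were fitted to the 21 libraries of a genotype. DESeq2 1.42.0 was an alternative. The fits were tested on simulated data. No 2 replicates agreed within sampling noise (chi-square per degree of freedom at least 5.60 in 42 pairs). Same-numbered WT and KO libraries deviated together (correlation over 0.1) in 3 of 21 pairs. These were the 3 pairs of T34 (0.23, 0.13 and 0.14), the time of the outlying library. Same-numbered libraries of different times did so in 11 of 63 pairs in WT (correlations -0.26 to 0.28) and 3 of 63 in KO (-0.10 to 0.13). The numbers were not used as a block in the main fits, and using them as one changed no call of the 5 genes.

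The genes, lists and alternatives were chosen with earlier results of these data known, and the T18 contrasts, the T34 against T10 difference between genotypes and the omission of KO T30 replicate 1 after the courses were seen. The text names the 5 genes whatever their values, and the 2 genes with the most similar course. Lists of other cell cycle genes and of cell type markers, fixed by symbol, could not be matched to identifiers and were not analysed here. Promoter sequences are RefSeq's (GRCr8), matched by symbol for 5 of 5 genes.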

Additional observations from a re-analysis of the deposited data

Results flagged for a closer look

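For 4 of the 5 genes the KO effect was not the same at all times, by the interaction test over 42 libraries. This test called 39.3% of all genes. The edgeR adjusted p was 6.42e-08 for Mki67, 0.000129 for Top2a, 1.69e-06 for Ccnb1 and 1.39e-06 for Cdk1.

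For all 5 genes a direct test found that WT and KO changed by different amounts between T10 and T34. KO minus WT on the log2 scale was -0.93 for Mki67, -0.51 for Top2a, -0.57 for Ccnb1, -0.79 for Cdk1 and -0.56 for Pcna. Of all genes, 36.9% were called for this difference, 21.7% with KO the lower. The Ccnb1, Pcna and Top2a calls were lost in some fits that left out a replicate number, at edgeR adjusted p of 0.052 to 0.273.

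The change of Ccnb1 from T10 to T18 also differed between the genotypes, by 0.69 (KO minus WT, log2). Of all genes, 3.71% were called for this difference. Every WT library at T18 was below every WT library at T10. Every KO library at T18 was above every KO library at T10. The share of all genes with such ranges was not counted. Within a genotype the change was not called with all 42 libraries (edgeR adjusted p 0.0527 in WT and 0.546 in KO). The Ccnb1 call was lost without WT replicate 3 or any replicate number of KO (edgeR adjusted p 0.126 to 0.167). This contrast and that of T34 and T10 between the genotypes were chosen after the values were seen.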

How the results depend on the processing

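Of 1536 values of the 5 genes under other settings, 1383 kept their direction and side of the threshold (for counts, stayed within 1.5 times), 49 lost the call, 57 gained it, 7 changed sign and 40 counts moved; the cause was not tested. With library totals Pcna in KO against WT at T10 was -0.13. The number of the 5 genes called for KO against WT was 4 at T10, 5 at T14 and 5 at T18. Of all 13776 genes, 10152, 10258 and 10004 were called at these times. T18 against T10 in WT gave 1 of the 5, and 1006 of all genes. Over all genes, the average KO effect then had 3918 higher and 8450 lower calls, against 5974 and 6157 with TMM. The replicate block used the replicate numbers, although most same-numbered libraries did not deviate together. It changed no call of the 5 genes and moved the WT cosinor from 249 to 161 genes called. The filter on low counts removed 0 genes from the fit of all 42 libraries, so leaving it out could not change that fit. Its values are still counted among the 1383.

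Leaving out replicates gave the following ranges. The average KO effect on Pcna was -0.20 to -0.13. T34 against T10 in WT was -0.14 to 0.19 for Top2a and -0.52 to 0.03 for Pcna. KO minus WT of T18 against T10 was -0.05 to 0.01 for Top2a and -0.07 to 0.003 for Cdk1. The numbers called are given for the 5 genes, with those for all genes in brackets. For KO against WT they were 1 to 3 (8866 to 10622) at T14 and 2 to 4 (8555 to 10473) at T18. For T34 against T10 in WT they were 2 to 4 (4052 to 6365). For T18 against T10 they were 0 to 2 (439 to 2543) in WT and 0 to 1 (16 to 353) in KO. For KO minus WT they were 0 to 2 (214 to 1591) at T18 and 2 to 5 (3210 to 6154) at T34. The cosinor called 0 to 4 (0 to 1929) in WT and 0 to 2 (0 to 4890) in KO. Over all genes, the WT cosinor called 0 genes without WT replicate 2 or 3 (1062 and 927 at an unadjusted p under 0.05), and the KO cosinor 0 without KO replicate 3 (3806), by edgeR; with all replicates DESeq2 called 793 and 5660.

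With only the 6 libraries compared, 4 of the 5 were called for KO against WT at T18, where 10206 of 13765 genes were. For T34 against T10 in WT it was 0, where 24 of 13740 were. It was 1 each for T18 against T10 in WT and KO, where 1286 and 795 of 13732 were. DESeq2 called 1 for T18 against T10 in WT (1252 of 13768 genes) and 2 for the WT cosinor (793 of 13475). The WT time effect called 1 with only the 21 WT libraries (2076 of 13754). The WT cosinor called 5 without the T34 libraries (3345 of 13748) and 2 with a linear term in time (490 of 13754). Counts of all genes moved most for T34 against T10 in WT (24 to 6365) and the cosinors (0 to 3345 in WT, 0 to 5911 in KO).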
